A study of Rattus norvegicus with 24 samples.

Results

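The potassium channel genes of the rat were taken as every row of the count table whose gene symbol begins with Kcn, in upper or lower case. This gave 94 of 32883 rows and 93 symbols, because Kcnn2 stands on 2 rows; the row ENSRNOG00000051569 had 0 counts in every sham library, and the values given for Kcnn2 are those of ENSRNOG00000016675. The members fall into 17 subfamilies: 29 are pore subunits of voltage-gated channels and 10 are silent voltage-gated subunits. The Kcnma, Kcnn, Kcnt and Kcnu groups hold 9 pore subunits, most of them gated by calcium or sodium. Of the rest, 15 are inward rectifiers, 14 are two-pore-domain leak channels and 16 are auxiliary subunits, and 1 (Kcnrg) is a soluble regulator of voltage-gated channel assembly. Kcnd2 was not analysed here.

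The animals were Sprague-Dawley rats, all aged 7 months, and polyadenylated RNA of 4 organs (liver, brain, thymus, spleen) was sequenced, with 3 libraries per organ from SAM-exposed rats and 3 from Sham rats, 24 in all. The series title names polychlorinated biphenyls (PCB), persistent chlorinated compounds, as the exposure, whereas the treatment label reads SAM, and the exposed group is called SAM here; the labels used here give no dose, duration or sex. Animals are numbered 1, 2 and 3 (SAM) and 13, 14 and 15 (Sham) in liver, 1, 2 and 3 and 13, 15 and 16 in brain, and 1, 3 and 5 and 14, 15 and 17 in both thymus and spleen. Libraries held between 12.9 and 20.1 M (mega) counts each, so 1 CPM (a count per M) stands for 12.9 to 20.1 counts; levels below are CPM scaled by TMM (trimmed mean of M values) within each tissue, as means ± SD of 3 libraries unless single libraries are given. Gene lengths were not used, so a level is compared for 1 gene between samples and never between genes.

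Potassium channels let potassium leave or enter a cell along its electrochemical gradient and thereby set the resting membrane potential and end the action potential. Voltage-gated (Kv) channels open on depolarization; calcium-activated channels open when calcium rises inside the cell; inward rectifiers and leak channels hold the resting potential; auxiliary subunits change how pores open or where they sit. In brain these channels shape the timing of firing, in lymphocytes they maintain the driving force for calcium entry after antigen contact, and in liver they take part in volume regulation and secretion.

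The defining genes of each tissue were found where the labels place them. Summed levels of 8 hepatocyte genes lay between 130200 and 165400 CPM in the liver libraries and at or below 77.2 CPM elsewhere; those of 8 neuronal genes lay between 4505 and 6847 CPM in brain and at or below 34.97 CPM elsewhere; those of 11 T lineage genes lay between 10850 and 12940 CPM in thymus, and those of 7 B cell genes between 2745 and 3450 CPM in spleen. Several libraries stood apart within their tissue. In liver, SAM 1 had 17.8% of its counts on mitochondrial genes against 5.71 to 8.07% in the other 5 libraries. In brain, SAM 1 and SAM 2 held 1462 and 1252 CPM of 9 olfactory bulb genes against 205 to 295 CPM in SAM 3 and the sham libraries. In thymus, SAM 1 and Sham 15 held 690 and 1098 CPM of 10 adipocyte genes against 29.0 to 131 CPM in the other 4.

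Promoter windows of 4 genes on which the results turn are shown here: Kcna6 and Kcnab1, which had the lowest p values in brain, Kcnma1, which had the lowest in liver and thymus, and Kcnj15, which the test between tissues placed higher in liver. Each window runs from 250 bases before to 50 after an annotated RefSeq start on the strand of the gene, in build GRCr8 (the counts were made on rn6), and capitals mark each CG dinucleotide.
Kcna6 (chr4:161262303-161262602, minus strand): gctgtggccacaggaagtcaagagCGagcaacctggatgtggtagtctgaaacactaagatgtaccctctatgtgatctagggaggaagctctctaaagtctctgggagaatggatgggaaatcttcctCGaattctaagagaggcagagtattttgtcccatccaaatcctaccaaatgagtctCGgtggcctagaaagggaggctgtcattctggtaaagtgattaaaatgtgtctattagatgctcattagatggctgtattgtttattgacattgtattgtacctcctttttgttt
Kcnab1 (chr2:151614301-151614600, plus strand): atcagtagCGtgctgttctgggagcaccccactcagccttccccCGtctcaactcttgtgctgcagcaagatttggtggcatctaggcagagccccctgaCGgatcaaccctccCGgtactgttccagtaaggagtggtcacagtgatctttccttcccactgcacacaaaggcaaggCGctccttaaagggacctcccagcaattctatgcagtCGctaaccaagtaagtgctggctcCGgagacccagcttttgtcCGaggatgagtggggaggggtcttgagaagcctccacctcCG
Kcnma1 (chr15:351675-351974, plus strand): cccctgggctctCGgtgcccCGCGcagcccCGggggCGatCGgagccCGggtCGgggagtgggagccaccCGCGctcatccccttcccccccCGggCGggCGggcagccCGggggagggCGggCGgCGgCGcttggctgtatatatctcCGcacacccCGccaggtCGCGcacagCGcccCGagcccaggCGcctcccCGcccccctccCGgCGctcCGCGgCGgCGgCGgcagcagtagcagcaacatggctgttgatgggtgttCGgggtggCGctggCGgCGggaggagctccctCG
Kcnj15 (chr11:48070700-48070999, plus strand): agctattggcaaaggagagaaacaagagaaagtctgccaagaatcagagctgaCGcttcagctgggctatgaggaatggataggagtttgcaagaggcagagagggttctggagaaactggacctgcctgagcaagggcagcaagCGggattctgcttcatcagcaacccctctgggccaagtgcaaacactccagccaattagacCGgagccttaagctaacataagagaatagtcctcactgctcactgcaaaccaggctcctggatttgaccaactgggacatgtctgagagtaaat
The Kcnma1 window holds 38 CG dinucleotides, more than 95.8% of all 33469 rat windows in the table, and 3 matches to the GC box (GGGCGG or its reverse complement CCGCCC). The Kcna6 and Kcnj15 windows hold 3 CG dinucleotides each and the Kcnab1 window holds 9, and none of these 3 has a GC box match. RefSeq windows matched 62 of the 93 member symbols (68 windows, since some genes have several). Their median was 13 CG dinucleotides against 7 over all windows, and a GC box was found in 50% of them against 33.1% of all windows. The windows of members placed higher in brain than in each other tissue had a median of 18 CG dinucleotides and a GC box in 55.6% of 45, and the remaining member windows had a median of 10 and a GC box in 39.1% of 23. The letters TATAAA, or TTTATA on the other strand, occurred in 2.94% of member windows and 14.2% of all windows, and CCAAT or ATTGG in 27.9% and 37.5%.

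The first comparison asked where each channel gene is expressed in unexposed animals. Brain held most of the family: the sham mean reached 1 CPM for 73 of the 94 members in brain, 39 in spleen, 36 in thymus and 7 in liver. These means carry no scaling between tissues. With such scaling, described below, more members reached 1 CPM in liver, among them Kcna2 (2.02 CPM) and Kcnma1 (1.57 CPM). Without that scaling, brain was the single tissue above 1 CPM for 34 members, 2 members (Kcnj8 and Kcnn1) reached it in all 4 tissues, and 12 reached it in none. With it, Kcnn1 was at 0.75 CPM in thymus, and Kcna2, Kcnab2, Kcnj14 and Kcnk13 reached 1 CPM in all 4 tissues beside Kcnj8. By mean level, 69 members were highest in brain, 11 in thymus, 11 in spleen and 1 in liver; with scaling between tissues, described below, the numbers were 69, 8, 11 and 4. In the sham libraries 38 members had 0 counts in all 3 liver libraries, 21 in spleen, 6 in thymus and 4 in brain; over the 3 liver libraries together, 3 counts would be 0.0612 CPM.

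**Figure D1:**
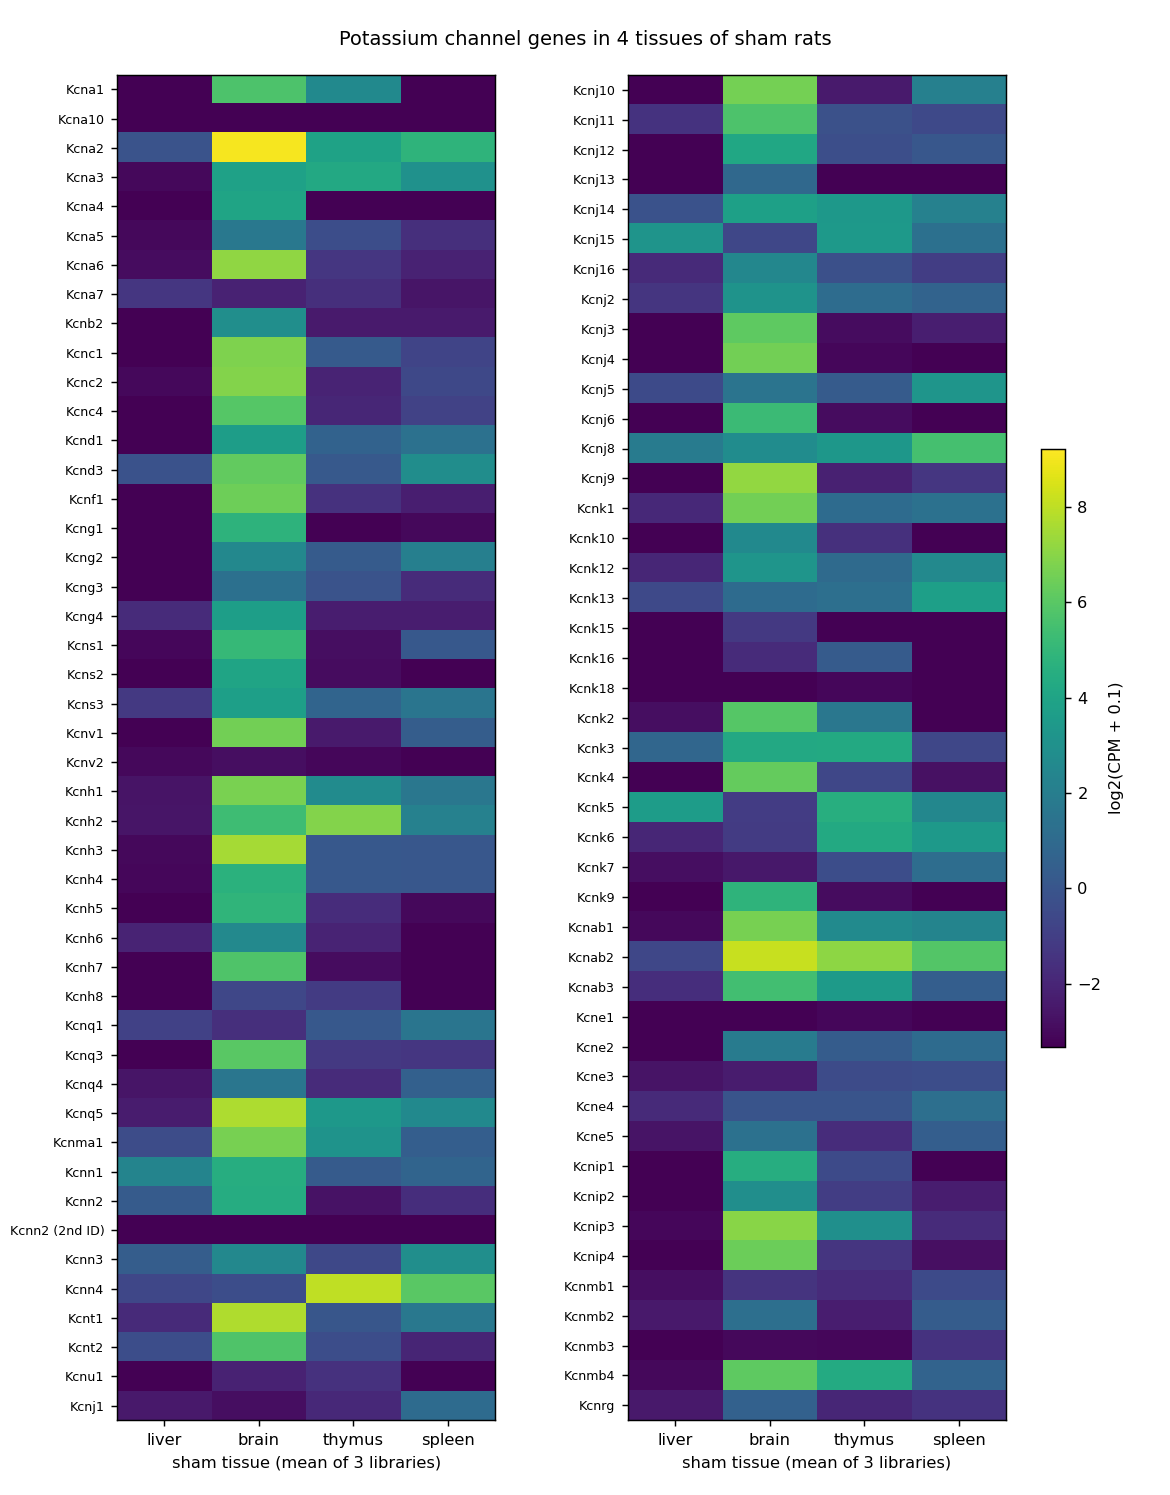
Mean level of 91 of the 94 potassium channel rows in the sham libraries of 4 tissues (columns), coloured by log2(CPM + 0.1), with rows ordered by subfamily in both panels. Most rows are brightest in the brain column, and Kcnn4, Kcnh2, Kcnk5 and Kcnk6 are brightest in thymus (Kcnk5 only without scaling between tissues), Kcnj8 and Kcnk13 in spleen.

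The tissues were compared with edgeR's quasi-likelihood test over the 12 sham libraries, a gene counting as higher where it passed an adjusted p of 0.05 and a log2 difference of at least 1 against each of the other 3 tissues. Of the 84 members tested, 60 (71.4%) were higher in brain than in each other tissue, against 20% of all 17204 genes tested. Spleen was higher than each other tissue for 7 members (8.33%, all genes 7.06%), thymus for 3 (3.57%, all genes 6.81%) and liver for 1 (1.19%, all genes 15.3%). Liver was lower than each other tissue for 20 members (23.8%, all genes 11.6%), brain for 4 (4.76%, all genes 12.1%), and thymus and spleen for 2 each (all genes 3.26% and 2.39%). Against the mean of the other 3 tissues instead, 72 members were higher in brain (85.7%, all genes 29.5%), 20 in spleen (all genes 21.1%), 17 in thymus (all genes 21.2%) and 4 in liver (all genes 24.1%). The members lower than that mean numbered 51 in liver (all genes 28.8%), 20 in thymus (18.8%), 18 in spleen (15.9%) and 9 in brain (26.6%). This second comparison has no defined size where a tissue and a second one are both at 0 counts, as they were for 19 members in liver and 18 in spleen. Where a single tissue is at 0 counts its size has no bound, and 38 members were at 0 in liver and 21 in spleen.

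Among voltage-gated pore subunits, brain was higher than each other tissue for 23 of 29 members. Kcna2, a Kv1 pore found along axons, was at 528 ± 98.2 CPM in sham brain, 28.3 ± 3.45 in spleen, 15.03 ± 1.68 in thymus and 0.84 ± 0.46 in liver. Kcnq5, a subunit of the M current that restrains repetitive firing, was at 207 ± 20.2 CPM in brain, 10.1 ± 0.63 in thymus and 6.18 ± 0.38 in spleen. Kcnd3, a transient A-type channel, was at 75.2 ± 13.2 CPM in brain and 6.95 ± 0.42 in spleen. These subunits were brain genes with a minor share in lymphoid tissue.

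A few voltage-gated pores went the other way. Kcnh2, which carries the rapid delayed rectifier of the heart, was at 120 ± 14.03 CPM in thymus, 40.1 ± 6.31 in brain, 4.42 ± 0.63 in spleen and 0.06 ± 0.06 in liver, and thymus exceeded brain by 1.32 ± 0.15 (log2 ± SE, edgeR adjusted p = 1.79e-06). Its relative Kcnh3 was at 183 ± 23.6 CPM in brain and below 1 CPM in each other tissue. Kcna3, the lymphocyte Kv1 channel, was at 19.0 ± 1.21 CPM in thymus, 14.2 ± 1.83 in brain, 7.99 ± 0.69 in spleen and 0.02 ± 0.03 in liver; the thymus and brain levels did not differ beyond their spread (log2 difference 0.16 ± 0.16, adjusted p = 0.366). Kcnq1, which pairs with Kcne subunits in heart and epithelia, was at 2.83 ± 0.49 CPM in spleen, 1.01 ± 0.34 in thymus, 0.44 ± 0.06 in liver and 0.22 ± 0.08 in brain. All 10 silent subunits, which modify Kv2 channels and form no channel alone, had their highest mean in brain, among them Kcnv1 (93.3 ± 8.38 CPM) and Kcnf1 (87.9 ± 15.4); in spleen, Kcng2 was at 4.12 ± 0.96 CPM against 5.77 ± 0.35 in brain.

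The calcium-activated pores were divided between brain and the lymphoid organs. Kcnma1, the large-conductance (BK) channel opened by both voltage and calcium, was at 101 ± 5.49 CPM in brain, 8.53 ± 0.82 in thymus, 1.23 ± 0.35 in spleen and 0.66 ± 0.26 in liver. Its partner Kcnmb4, the neuronal BK beta subunit, was at 69.2 ± 10.5 CPM in brain and 20.1 ± 3.40 in thymus. Kcnn4, the intermediate-conductance channel of lymphocytes and red blood cells, was at 258 ± 33.4 CPM in thymus and 65.5 ± 3.07 in spleen but 0.68 ± 0.22 in brain and 0.53 ± 0.13 in liver. Thymus exceeded spleen for Kcnn4 by 1.81 ± 0.12 on the log2 scale (adjusted p = 5.80e-08). Of the small-conductance (SK) channels, Kcnn1 was at 22.4 ± 2.77 CPM in brain and 5.04 ± 1.30 in liver, and Kcnn3 was at 7.23 ± 0.36 CPM in spleen and 5.67 ± 2.15 in brain, which did not differ beyond their spread (adjusted p = 0.441). Kcnt1, a sodium-activated channel, was at 212 ± 23.5 CPM in brain and 3.12 ± 0.38 in spleen.

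The inward rectifiers were split by partner and role. The 3 neuronal G-protein-gated members Kcnj3, Kcnj6 and Kcnj9 were at 69.9 ± 10.7, 37.0 ± 2.33 and 146 ± 20.9 CPM in brain and at or below 0.29 CPM elsewhere, whereas the fourth G-protein-gated gene, Kcnj5, was highest in spleen (9.34 ± 1.74 CPM, against 2.74 ± 0.22 in brain). The pores of ATP-sensitive channels were also separated: Kcnj11 was at 52.9 ± 4.77 CPM in brain and at most 0.77 CPM elsewhere, and Kcnj8, known from vascular smooth muscle, was at 45.5 ± 4.05 CPM in spleen, 10.1 ± 1.42 in thymus, 6.84 ± 1.06 in brain and 3.68 ± 1.32 in liver. Spleen exceeded thymus for Kcnj8 by 2.36 ± 0.19 (log2, adjusted p = 3.00e-07). Kcnj10, the astrocyte channel that buffers potassium, was at 97.0 ± 18.4 CPM in brain and 4.30 ± 0.66 in spleen. Kcnj1, the secretory channel of the kidney tubule, was at 1.97 ± 0.45 CPM in spleen and at or below 0.17 CPM elsewhere. Kcnj4, a strong rectifier of forebrain neurons, was at 92.8 ± 8.64 CPM in brain and had 0 counts in the sham liver libraries. The same held for Kcnh7, Kcnj6, Kcng1, Kcnj9, Kcnj3, Kcnk9, Kcna4 and Kcnip4, so no fold against liver is given for these genes.

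Kcnj15, an epithelial inward rectifier, was the 1 member that the scaled test placed higher in liver than in each other tissue. Its level was 8.78 ± 0.85 CPM in liver, 10.7 ± 0.98 in thymus, 2.38 ± 0.26 in spleen and 0.53 ± 0.22 in brain, so that liver lay below thymus before scaling between tissues and 1.52 ± 0.17 above it (log2) after scaling. The scaling factors were 0.43 to 0.457 in the liver libraries and 1.178 to 1.48 in the others, and with no scaling beyond the library total 0 members were higher in liver than in each other tissue. Kcnk5, a leak channel of epithelia opened by alkaline pH, was at 23.3 ± 1.195 CPM in thymus, 12.02 ± 2.57 in liver, 5.52 ± 0.60 in spleen and 0.37 ± 0.18 in brain, and its order also turned: liver lay 0.84 ± 0.18 above thymus with scaling and at -0.88 ± 0.19 without it (log2). With scaling, brain was lower than each other tissue for Kcnj15, Kcnk5, Kcnn4 and Kcnq1. Without it Kcnn4 did not pass, since brain against liver was -1.20 ± 0.35 with scaling and 0.23 ± 0.35 without. The rank of liver turned for other genes above as well. With scaling, the Kcnj8 mean was 8.83 CPM in liver, 6.855 in thymus and 5.59 in brain. Scaled means were 1.57 CPM in liver and 0.95 in spleen for Kcnma1, and 1.065 in liver and 0.69 in thymus for Kcnq1.

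Leak channels showed a division between brain members and lymphoid members. Kcnk1, Kcnk4 and Kcnk2, the last 2 being mechanically gated channels, were at 92.6 ± 6.24, 77.8 ± 14.3 and 60.2 ± 18.6 CPM in brain and at or below 3.00 CPM elsewhere. Kcnk13, known from microglia, was at 13.5 ± 2.69 CPM in spleen and at 1.97 ± 0.39 CPM in brain. Kcnk6 was at 19.6 ± 1.86 CPM in thymus and 10.8 ± 1.87 in spleen against 0.36 ± 0.31 in brain, and thymus and spleen did not pass against each other (adjusted p = 0.0561). Kcnk7 was at 2.11 ± 0.37 CPM in spleen, and Kcnk16, a channel of pancreatic islets, at 1.10 ± 0.45 in thymus, from at most 32 counts in a library. Among auxiliary subunits, brain was higher than each other tissue for 9 of 16. The Kv1 partner Kcnab2 was at 293 ± 52.6 CPM in brain, 135 ± 14.3 in thymus and 58.8 ± 2.86 in spleen; the Kv4 partner Kcnip3 was at 128 ± 12.9 CPM in brain and 7.49 ± 0.63 in thymus; and Kcne4, an inhibitor of several Kv pores, was highest in spleen at 2.27 ± 0.47 CPM.

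The tissue calls were made again on the 12 SAM libraries. Kcnn4 was again higher in thymus than in each other tissue, and Kcnj1, Kcnj5, Kcnj8, Kcnk13 and Kcnk7 again in spleen, as was Kcnj15 in liver. Kcnh2 and Kcnk16 did not pass for thymus there, nor Kcne4 and Kcnq1 for spleen, and Kcnk6 passed for thymus. Kcnk16 was instead higher in brain than in each other tissue. In the brain test of SAM against Sham, Kcnk16 did not pass the low-count filter over the full set of libraries, so no fold change is given. Its scaled mean in sham brain was 0.155 CPM.

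The second comparison asked which channel genes differed between SAM and Sham in each tissue. No member passed an adjusted p of 0.05 with edgeR in any tissue, among 77 members tested in brain, 45 in thymus, 49 in spleen and 12 in liver, and the test called 0% of all genes as well. In bulk tissue, fewer cells of a type and less RNA per cell cannot be told apart, which holds for every difference below. At an unadjusted p under 0.05, 13 brain members were higher in SAM (16.9%, all genes 11.9%) and 13 were lower (16.9%, all genes 8.61%). DESeq2, run in place of edgeR, called 7 brain members, with 3.43% of all genes called. The groups did not overlap for 6 brain members higher in SAM (7.79%, all genes 11.6%) and 7 lower (9.09%, all genes 12.2%). The median log2 fold change (SAM minus Sham) was -0.19 over the 77 members and 0.01 over all genes.

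The 3 exposed brains were not alike, and the 10 members named by the lowest p show this. Kcna6, a Kv1 pore, was at 80.9, 87.8 and 98.0 CPM in SAM 1, 2 and 3 and at 154.5, 128 and 145 CPM in Sham 13, 15 and 16. Every SAM library lay below every sham library, and the log2 fold change was -0.68 ± 0.11 (SE; edgeR adjusted p = 0.221, DESeq2 adjusted p = 0.000295). Kcnab1, a cytosolic beta subunit that binds Kv1 pores and speeds their inactivation, was at 35.55, 39.0 and 63.0 CPM in SAM and 91.55, 102 and 112 CPM in Sham. Again the groups did not overlap, with SAM 3 nearer to the sham libraries (-1.15 ± 0.22, edgeR adjusted p = 0.221). Kcnc2, a Kv3 channel of fast-spiking interneurons, was at 51.5, 56.0 and 98.7 CPM in SAM and 111.5, 122.5 and 123 CPM in Sham (-0.80 ± 0.24).

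The other 7 named brain members were higher in SAM, and in each the difference lay mainly in SAM 1 and SAM 2. Kcnk15, a leak subunit that gives no current by itself, was at 20.9 and 21.5 CPM in SAM 1 and 2, 0.73 CPM in SAM 3 and 0.17 to 0.61 CPM in Sham. Its fitted log2 fold change was 5.48 ± 1.26 (edgeR adjusted p = 0.221). Kcnb2, a Kv2 delayed rectifier, was at 28.3 and 30.45 CPM in SAM 1 and 2, 7.94 CPM in SAM 3 and 6.95 to 7.76 CPM in Sham. Kcnh6, of the ERG group, was at 27.1 and 22.1 CPM in SAM 1 and 2 and at 5.67 CPM in SAM 3, inside the sham range of 5.10 to 6.85 CPM. Kcnip1, a calcium-binding partner of Kv4 pores, was at 60.9 and 53.6 CPM in SAM 1 and 2, 24.3 CPM in SAM 3 and 19.65 to 25.9 CPM in Sham. SAM 3 was thus within or beside the sham values for these 4 genes. Kcnk13 was at 5.76, 6.72 and 3.00 CPM in SAM and 1.515 to 2.215 CPM in Sham, and Kcnj14, a strong inward rectifier, at 26.9, 23.25 and 16.9 CPM against 12.97 to 15.1 CPM, so in both the groups did not overlap. Kcne5, a single-span subunit that modifies Kv pores, was at 10.4, 6.72 and 3.00 CPM in SAM and 1.84 to 3.27 CPM in Sham. Fitted log2 fold changes of these 6 genes after Kcnk15 were 1.63 for Kcnb2, 1.63 for Kcnh6, 1.05 for Kcnip1, 1.39 for Kcnk13, 0.68 for Kcnj14 and 1.45 for Kcne5.

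**Figure D2:**
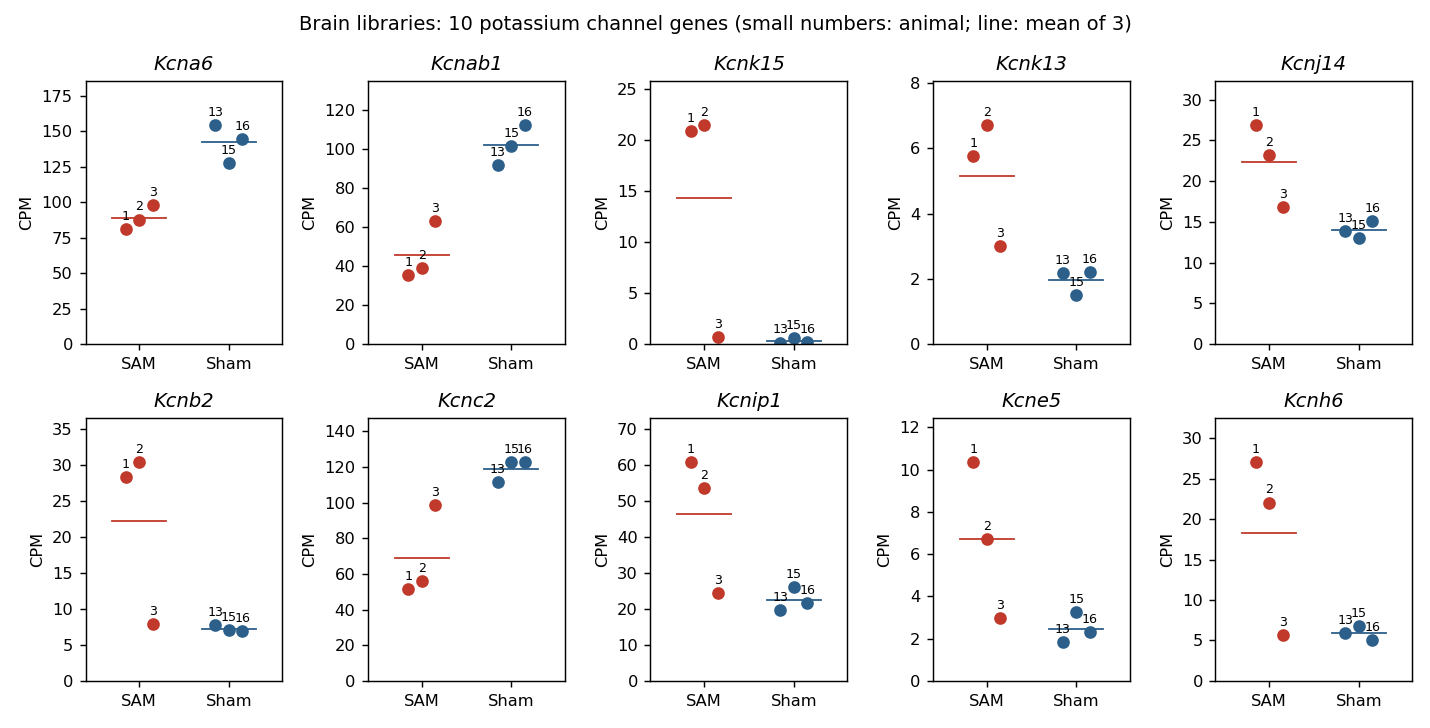
Level (CPM, linear axes from 0) of the 10 brain members named by lowest p, 1 point per library with the animal number beside it and a line at the mean of 3, SAM in red and Sham in blue. SAM 1 and SAM 2 lie nearer to each other than to SAM 3 in every panel, and SAM 3 lies at or near the sham points for Kcnk15 (0.73 CPM), Kcnb2 (7.94 CPM), Kcnip1 (24.3 CPM) and Kcnh6 (5.67 CPM).

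Counted over all 77 brain members, SAM 1 was above every sham library for 28 (36.4%, all genes 39.2%) and below for 43 (55.8%, all genes 38.4%), and SAM 2 above for 27 (35.1%, all genes 37.9%) and below for 41 (53.2%, all genes 37.4%). SAM 3 was above for 13 (16.9%, all genes 27.7%) and below for 16 (20.8%, all genes 27.6%). Without SAM 1 and SAM 2 the median over members was -0.02, and 1 member was higher (all genes 4.72%) and 4 lower (all genes 2.53%) at an unadjusted p under 0.05. That setting leaves 1 SAM library, so its spread is that of the sham libraries alone and SAM 3 is assumed to vary like them. The fold changes there were -0.54 for Kcna6 and -0.69 for Kcnab1, while Kcnb2 was at 0.13, Kcnip1 at 0.12 and Kcnh6 at -0.07. Without SAM 3, 20 members were called higher (all genes 18.5%) and 38 lower (all genes 19.6%), so 0 calls over all 6 libraries became 58 when that 1 library was left out.

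**Figure D3:**
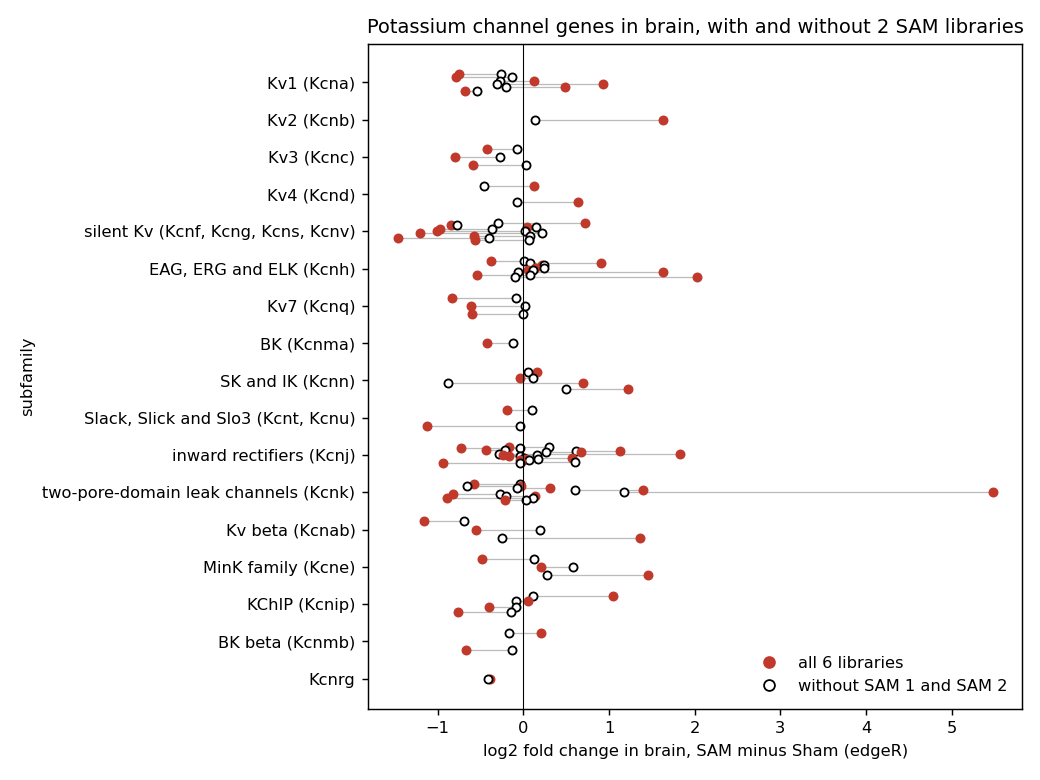
Log2 fold change in brain (SAM minus Sham, edgeR) of tested members by subfamily, filled for all 6 libraries and open without SAM 1 and SAM 2, with a line joining the values of 1 gene. The open points lie nearer to 0 for most genes, as for Kcnk15 (5.48 and 1.177), and Kcna6 (-0.68 and -0.54) moves little.

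By subfamily, all 4 Kv3 genes (median -0.50) and all 4 tested Kv7 genes (median -0.61) had negative log2 fold changes, as did 7 of 9 silent subunits (median -0.85); of all genes tested in brain 48.6% were negative. With SAM 3 as the 1 SAM library these medians were -0.04, 0.01 and 0.02, and 2, 2 and 4 of the genes were negative. In the EAG, ERG and ELK group 6 of 8 were positive (median 0.18, and 0.08 with SAM 3 as the 1 SAM library). At an unadjusted p under 0.05, 3 of the 9 silent subunits were lower (all genes 8.61%), 3 of the 8 EAG, ERG and ELK genes were higher (all genes 11.9%), and 4 of 13 inward rectifiers were higher and 1 lower; these counts are of few genes. Beside these values, SAM 1 and SAM 2 differed from the other 4 libraries in neuronal marker genes. The summed level of 11 forebrain excitatory genes was 1977 and 2448 CPM in SAM 1 and 2, 5735 CPM in SAM 3 and 4733 to 5591 CPM in Sham, and that of 12 inhibitory genes was 2652 and 2317 CPM, 672 CPM and 757 to 846 CPM. Genes of neurons of any kind summed to 4505 and 4557 CPM in SAM 1 and 2, 6120 CPM in SAM 3 and 6504 to 6847 CPM in Sham. Of the 6 olfactory bulb genes tested, whose sums are given above, 5 were higher at an unadjusted p under 0.05 and 0 lower, and of the 12 inhibitory genes 7 were higher and 2 lower. In SAM 3 these sums lay near the sham libraries, whereas 9 oligodendrocyte genes summed to 4502 CPM there against 6042 to 7196 CPM in Sham and 6042 and 5303 CPM in SAM 1 and 2. Of these 9 genes 6 were lower at an unadjusted p under 0.05 (all genes 8.61%). Likewise 6 were lower in every SAM library than in any sham library (all genes 12.2%). Of 9 striatal genes 6 were lower at an unadjusted p under 0.05, with sums of 321 to 377 CPM in SAM and 358, 658 and 688 CPM in Sham. SAM 3 also held more of the red blood cell genes (463.5 CPM, against 137 to 203 CPM in Sham), the endothelial genes (529 against 351 to 406 CPM) and the mural genes (302 against 204.5 to 228.5 CPM). The part of these cell types in the channel differences was not tested.

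In thymus 1 tested member of 45 was higher (2.22%, all genes 1.66%) and 4 were lower (8.89%, all genes 4.48%) at an unadjusted p under 0.05. The groups did not overlap for 1 member higher (2.22%, all genes 4.97%) and 7 lower (15.6%, all genes 6.96%). The median was -0.16 against 0.00 over all genes, and 32 of 45 members had a negative value. Kcnma1 stood first: the thymus libraries held 2.34, 4.66 and 2.78 CPM in SAM 1, 3 and 5 and 8.504, 9.37 and 7.725 CPM in Sham 14, 15 and 17. Each SAM library lay below each sham library, with a log2 fold change of -1.38 ± 0.26 (edgeR adjusted p = 0.337). DESeq2 called this 1 member in thymus (adjusted p = 0.00098), with 0.619% of all genes called. Kcna1, the Kv1 pore mutated in episodic ataxia, was at 2.10, 4.66 and 2.09 CPM in SAM and 6.73, 5.38 and 6.10 CPM in Sham (-1.04 ± 0.33, edgeR adjusted p = 0.672). These groups too did not overlap, and in both genes SAM 3 was the nearest to Sham.

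The remaining named thymus members had smaller differences. Kcnj15 was at 4.07, 8.08 and 8.22 CPM in SAM and 9.57 to 11.4 CPM in Sham (-0.65 ± 0.26), and without SAM 1 the value was -0.39. Kcnq5 was at 7.85 to 8.51 CPM in SAM and 9.41 to 10.5 CPM in Sham (-0.32 ± 0.12), Kcnk1 at 0.99 to 1.58 and 1.88 to 2.10 CPM (-0.55 ± 0.25, and -0.35 without SAM 1), and Kcna3 at 16.1 to 16.9 and 18.0 to 20.4 CPM (-0.20 ± 0.09). In all 3 the ranges did not overlap, although no adjusted p was under 0.780 (edgeR). Kcnn3 was higher, with 1.11, 1.12 and 1.83 CPM in SAM and 0.41 to 0.66 CPM in Sham (1.24 ± 0.34, edgeR adjusted p = 0.557); it has a mean below 1 CPM and is named here after its values were seen. Beside these values, 7 of 9 thymic epithelium genes were lower at an unadjusted p under 0.05, with sums of 740 to 915 CPM in SAM and 1279 to 1416 CPM in Sham, and 8 mural and smooth muscle genes summed to 263 to 334 CPM and 329 to 417 CPM. T lineage genes summed to 11610 to 12940 CPM in SAM and 10850 to 12060 CPM in Sham. The part of these cell types in the lower Kcnma1 and Kcna1 levels was not tested.

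Kcnk3, an acid-sensitive leak channel, had the widest spread relative to its level among the thymus members at or above 1 CPM, with an SD over the sham libraries of 1.58 times the mean. It was at 26.5, 1.96 and 2.40 CPM in SAM 1, 3 and 5 and at 2.58, 54.6 and 0.81 CPM in Sham 14, 15 and 17, so 1 library of each group was high and the groups overlapped. The summed level of 10 genes of brown and white adipocytes, a list chosen after the values were seen, was 690, 88.4 and 131 CPM in SAM and 114, 1098 and 29.0 CPM in Sham; among them Ucp1, the uncoupling protein of brown fat, was at 81.3, 0 and 0.06 CPM and at 0.10, 141 and 0.10 CPM. Mitochondrial genes took 5.64% of the counts of SAM 1, 8.18% of those of Sham 15 and 2.95 to 3.64% of those of the other 4 libraries. Both high Kcnk3 libraries were thus the ones with the highest adipocyte sums and mitochondrial shares, and their part in the Kcnk3 level was not tested. The sham thymus level of Kcnk3 (19.3 ± 30.5 CPM) rests on Sham 15.

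**Figure D4:**
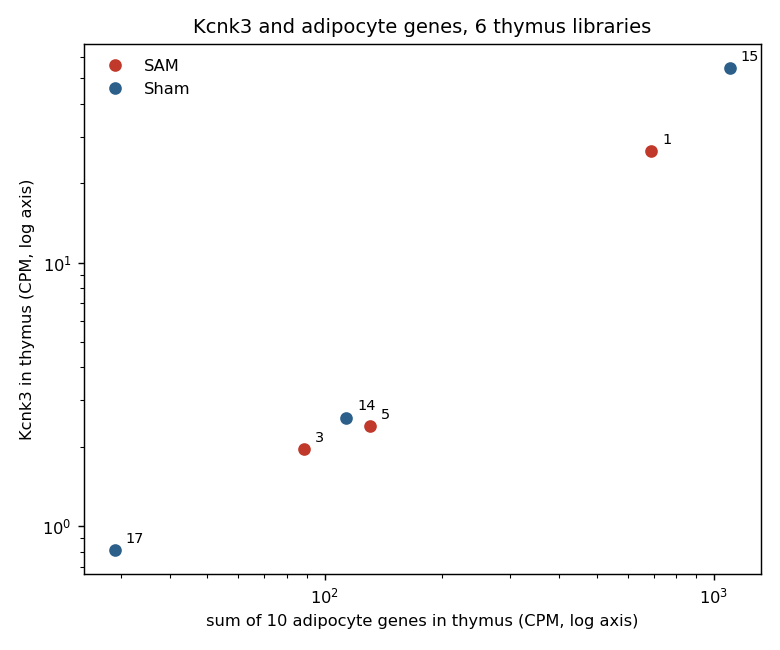
Kcnk3 level against the summed level of 10 adipocyte genes in the 6 thymus libraries (both axes CPM, log scale), SAM in red and Sham in blue, with animal numbers. SAM 1 (26.5 CPM) and Sham 15 (54.6 CPM) stand apart from the other 4 libraries on both axes.

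In spleen 1 of 49 tested members was higher (2.04%, all genes 2.22%) and 3 were lower (6.12%, all genes 1.89%) at an unadjusted p under 0.05. The groups did not overlap for 3 members higher (6.12%, all genes 4.47%) and 4 lower (8.16%, all genes 4.74%). The lowest adjusted p of a member was 0.968 with edgeR, and DESeq2 called 0 members (all genes 0.0482%). Kcnn4 was at 69.9, 82.7 and 87.35 CPM in SAM 1, 3 and 5 and at 63.6, 63.9 and 69.0 CPM in Sham 14, 15 and 17, a gap of under 1 CPM between the nearest libraries (0.29 ± 0.09). Kcnn3 was at 6.33, 4.96 and 4.63 CPM in SAM and 7.52, 7.33 and 6.83 CPM in Sham (-0.45 ± 0.16). Kcnk6 was at 7.87 to 8.62 and 9.41 to 12.9 CPM (-0.38 ± 0.15, and -0.23 without Sham 14) and Kcnq5 at 4.396 to 5.01 and 5.87 to 6.61 CPM (-0.36 ± 0.15). These 3 genes were lower in every SAM spleen than in any sham spleen, and Kcnq5 was so in thymus as well. Thymus and spleen libraries carry the same animal numbers, so they may not be independent, and the share of all genes lower in both was not counted. Kcna3 was at 8.74 to 11.7 CPM in SAM and 7.19 to 8.39 CPM in Sham (0.34 ± 0.15, and 0.21 without SAM 1), and Kcne4 at 0.86 to 2.02 and 1.78 to 2.71 CPM, with overlap (-0.77 ± 0.34, and -1.22 without SAM 3). Beside Kcnn4 and Kcna3, both lymphocyte channels, the 11 T lineage genes summed to 846 to 989 CPM in SAM and 710 to 840 CPM in Sham, and the 7 B cell genes to 2745 to 3198 and 2957 to 3450 CPM. The part of lymphocyte numbers was not tested.

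In liver 12 members passed the filter on low counts. Kcnma1 was the 1 member at an unadjusted p under 0.05 (8.33%, all genes 1.79% higher and 0.907% lower), at 1.83, 1.11 and 6.12 CPM in SAM 1, 2 and 3 and 0.76, 0.36 and 0.846 CPM in Sham 13, 14 and 15 (2.203 ± 0.70, edgeR adjusted p = 0.802). The groups did not overlap for Kcnma1 and for Kcnn4, at 0.80 to 1.10 CPM in SAM and 0.42 to 0.68 CPM in Sham (2 members higher, 16.7%, all genes 5.19%; 0 lower, all genes 5.63%). SAM 3 was the highest of the Kcnma1 values, and without it the log2 fold change was 1.14 ± 0.51. DESeq2 called 0 liver members (all genes 0.0165%). Beside this, 8 mural genes summed to 119 to 127 CPM in both groups, and 6 red blood cell genes to 484 to 1129 CPM in SAM and 345 to 442 CPM in Sham; their part was not tested. Kcnk5 was at 12.2 to 14.9 CPM in SAM and 9.20 to 14.2 CPM in Sham (0.19 ± 0.21), Kcnj8 at 4.13 to 4.30 and 2.81 to 5.20 CPM (0.19 ± 0.29), Kcnn1 at 3.38 to 6.06 and 3.79 to 6.39 CPM (-0.11 ± 0.30) and Kcnn3 at 0.61 to 2.46 and 0.52 to 1.57 CPM (0.20 ± 0.62), all with overlap. These 4 values rest on single libraries: leaving out 1 at a time moved Kcnk5 between 0.03 (without Sham 14) and 0.33 (without Sham 13) and Kcnj8 between 0.029 (without Sham 14) and 0.52 (without Sham 15), and Kcnn1 and Kcnn3 changed sign. Kcnj15 was at 0.82 CPM in SAM 1, the library rich in mitochondrial counts, against 12.96 and 13.6 CPM in SAM 2 and 3 and 7.80 to 9.31 CPM in Sham, so its value of 0.08 ± 0.71 became 0.60 ± 0.15 without SAM 1, with no adjusted call.

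**Figure D5:**
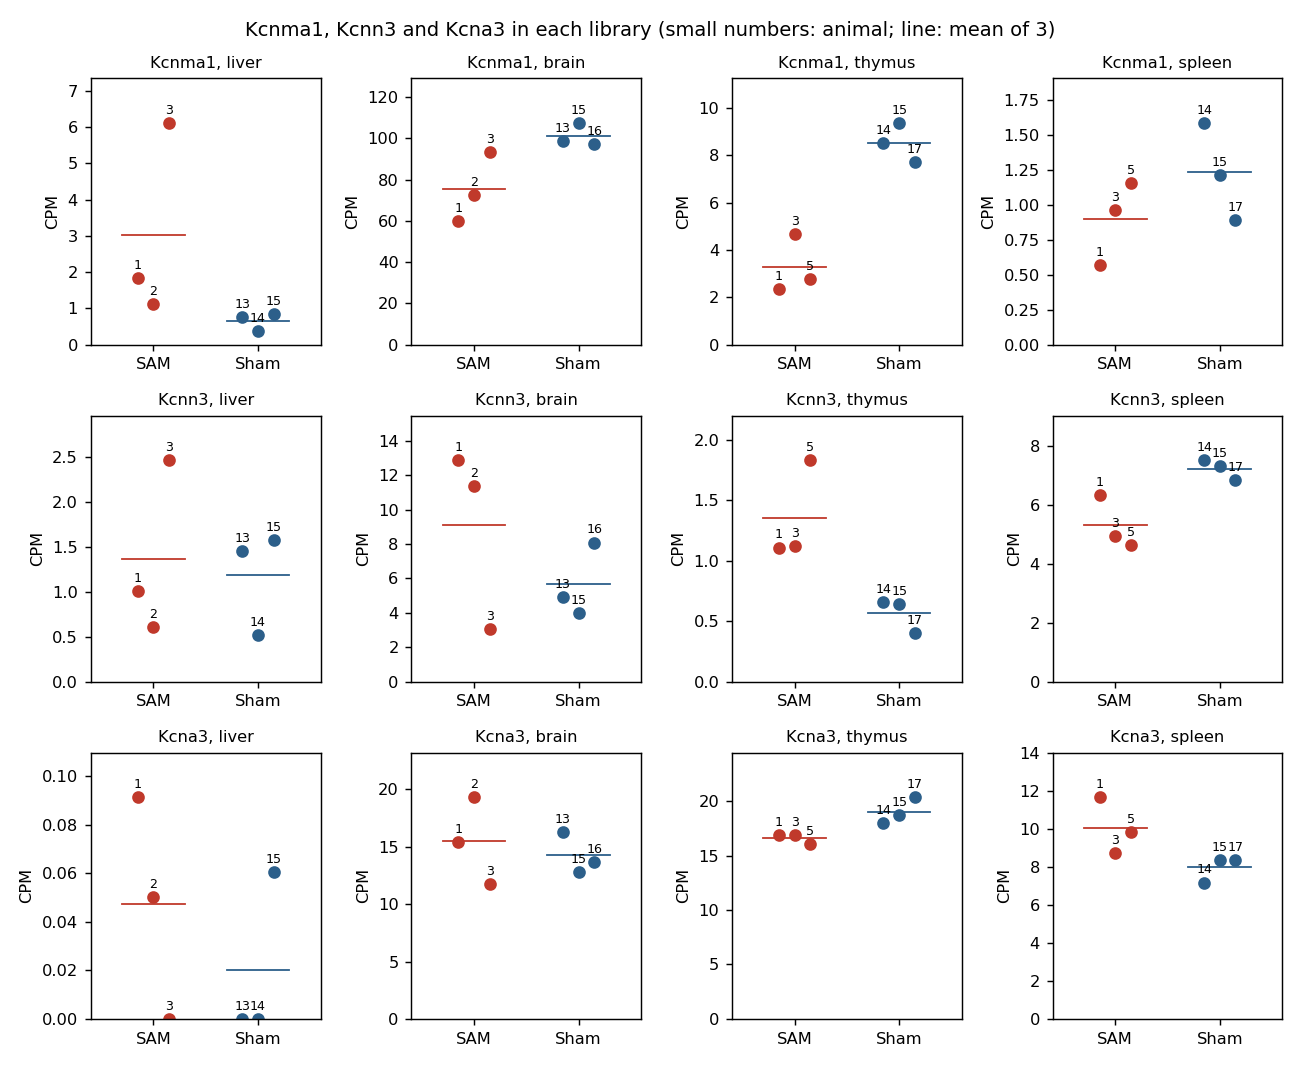
Levels (CPM, linear axes from 0, 1 scale per panel) of Kcnma1, Kcnn3 and Kcna3 in each library of the 4 tissues, 1 point per library with the animal number and a line at the mean of 3. Kcnma1 is higher in every SAM liver library (1.11 to 6.12 CPM) than in any sham liver library and lower in every SAM thymus library (2.34 to 4.66 CPM) than in any sham thymus library.

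A single edgeR fit over the 24 libraries, with 3 terms for the interaction of exposure and tissue, tested whether the exposure difference varied from tissue to tissue. Of 86 members tested 0 passed an adjusted p of 0.05 (all genes 0.0113%). Kcnma1 had the lowest interaction p (0.000202, adjusted p = 0.123). Its log2 fold changes were 2.203 in liver, -0.43 in brain and -1.38 in thymus, and in spleen SAM (0.57, 0.96 and 1.16 CPM) and Sham (0.89 to 1.58 CPM) overlapped. The brain value was -0.12 without SAM 1 and SAM 2 and -0.62 without SAM 3. Over the settings that leave out 1 library, the adjusted p of Kcnma1 ran from 0.00761 without SAM 3 in brain to 0.331 without Sham 13 in brain. Without SAM 3 in brain 13 members were called (all genes 5.52%). The adjusted p of Kcnma1 was also under 0.05 without SAM 2 in liver (0.0247, all genes 0.38%). Its unadjusted edgeR interaction p was 0.000182 without SAM 3 in brain, near the 0.000202 over all 24 libraries, and 6.91e-06 without SAM 2 in liver. Kcnab1 (adjusted p = 0.304), Kcnk16 (0.377), Kcnn4 (0.408) and Kcnc2 (0.428) followed.

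Genes that work with these channels were read from a list of 34: anchoring and clustering proteins, peptidase-like Kv4 partners, the sulfonylurea receptors of ATP-sensitive channels, ubiquitin ligases, potassium and chloride cotransporters, sodium pump subunits and the related HCN channels. With edgeR 0 of them passed an adjusted p of 0.05 in any tissue. In brain 4 of 32 tested were higher (all genes 11.9%) and 4 lower (all genes 8.61%) at an unadjusted p under 0.05, counts near those shares, and among those with the lowest p values were Slc12a4, a potassium and chloride cotransporter (36.9 to 43.7 CPM in SAM, 25.3 to 29.0 CPM in Sham, log2 fold change 0.56), Cntn2, an axonal adhesion protein that clusters Kv1 channels (-0.53), and Lgi1, a secreted binding protein (-0.40). These 3 had groups that did not overlap, SAM 3 included. Over the 32 list genes tested in brain, the groups did not overlap for 2 higher (all genes 11.6%) and 5 lower (all genes 12.2%).

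In thymus 0 of 26 tested list genes were higher and 7 were lower at an unadjusted p under 0.05 (all genes 4.48%), and 9 were lower with no overlap (all genes 6.96%). Abcc9, the sulfonylurea receptor that pairs with Kcnj8, was at 30.45, 35.1 and 38.5 CPM in SAM and 64.7, 58.6 and 43.6 CPM in Sham (-0.68 ± 0.15), followed by the ubiquitin ligase Nedd4l (-0.44), the anchoring protein Ank3 (-0.54) and the Kv4 partner Dpp6 (-0.90). The thymic epithelium sums given above were lower in every SAM thymus than in any sham thymus. The mural sums overlapped between the groups. The part of these cell types in these genes was not tested. In spleen 1 of 24 was higher (all genes 2.22%) and 3 were lower (all genes 1.89%), led by Ank3 (3.31 to 4.51 CPM in SAM, 5.74 to 6.38 CPM in Sham, -0.59), Lgi1 (-0.63) and Hcn2 (-0.74). Ank3 was thus lower without overlap in both lymphoid organs. Their libraries carry the same animal numbers, so the organs may not be independent, and the share of all genes lower in both was not counted. In liver 0 of 15 passed in either direction, the lowest p values among genes above 1 CPM being those of the ubiquitin ligase Wwp1 (-0.39), Abcc9 (-0.33) and the sodium pump subunit Atp1b1 (0.31).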

How the data were processed

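Per the labels, polyadenylated RNA from 24 tissue samples was sequenced with a stranded kit, and the submitters' processing notes name STAR 2.2.1 and build rn6; the counter, annotation and strand setting were not given in the sources used here. Whether reads of members that overlap were counted apart is therefore not known here. Kcnip1 and Kcnmb1 are neighbours in gene order, and whether they overlap was not examined. The authors deposited whole-number counts per gene; every column was matched to a sample by tissue and animal number. Counts were tested in R 4.3.3 with edgeR 4.0.16 (filterByExpr, TMM, quasi-likelihood test, Benjamini-Hochberg adjustment over all genes at 0.05): SAM minus Sham in each tissue, the 3 interaction terms over 24 libraries, and each sham tissue against the others. Calls against each other tissue were added after the data were seen. DESeq2 1.42.0 and the settings of the last section were alternatives, and the scripts were tested on simulated data. Nothing in the labels says that replicates of a group were prepared separately, so p-values measure the spread between these libraries; no 2 libraries of a group agreed within sampling noise. Named in each tissue were the members with the lowest p and a mean of at least 1 CPM (10 in brain, 6 elsewhere), the highest member of a subfamily in a sham tissue, the largest tissue differences, the 5 lowest interaction p values and the 4 lowest of the partner list. Animal numbers shared between tissues were checked for pairing (11 pairs, correlations -0.01 to 0.17, 2 over 0.1) and not used as a block. Results of a few genes these rules name are not reported here. The members and gene lists were chosen with earlier results of these data known.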

Additional observations from a re-analysis of the deposited data

Results flagged for a closer look

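In 4 cases, from Kcnma1, Kcna3 and Kcnn3, every SAM library lay on one side of the sham libraries in 1 tissue and on the other side in a second tissue. The share of all genes with such opposite pairs was not counted. In a single tissue, 4.47 to 12.2% of all genes had groups that did not overlap in a given direction. The difference between the paired tissues was not itself tested, and the p-values given are those of edgeR's interaction over all 4 tissues. For Kcnma1 the log2 fold change was 2.63 higher in liver (2.203) than in brain (-0.43) and 3.58 higher in liver than in thymus (-1.38), with an interaction p of 0.000202 (adjusted p = 0.123). The liver value was 1.14 without SAM 3. The brain value was -0.12 without SAM 1 and SAM 2 and -0.62 without SAM 3. For Kcna3 the fold change was 0.53 higher in spleen (0.34) than in thymus (-0.20), with an adjusted interaction p of 0.739. For Kcnn3 it was 1.68 higher in thymus (1.24) than in spleen (-0.45), with an adjusted interaction p of 0.643, and the thymus levels were 0.41 to 1.83 CPM.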

How the results depend on the processing

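Shares in parentheses are those of all genes under the same setting. Leaving out 1 library at a time, the members called in brain ranged from 0 to 58 (58 without SAM 3, all genes 38.1%), and the members called for the interaction from 0 to 13 (13 without SAM 3 in brain, all genes 5.52%). At an unadjusted p under 0.05 the brain members ranged from 5 higher (6.16% without SAM 1, 6.43% without Sham 13) to 21 (23.3% without SAM 3), and from 3 lower (3.24% and 2.68% without SAM 1 or SAM 2) to 39 (24.1% without SAM 3). In liver 0 to 2 members were higher (0 without SAM 3 or Sham 14, 2.03% and 0.836%, and 2 without SAM 1, 2.18%), in thymus 2 to 5 lower (2 without Sham 15, 3.29%), and in spleen 1 to 2 higher (2 without SAM 3 or Sham 17, 1.84% and 2.44%) and 0 to 4 lower (0 without SAM 5 or Sham 14, 1.7% and 1.55%). Without both SAM 1 and SAM 2, brain had 1 member higher (4.72%) and 4 lower (2.53%), and Kcnh6 turned to -0.066. DESeq2 in place of edgeR called 7 members in brain (3.43%) and 1 in thymus (0.619%), with 20 brain members lower at an unadjusted p under 0.05 (9.48%), and placed 36 members lower in thymus (23.7%) and 40 lower in spleen (22.5%) than the mean of the other tissues. With no filter on low counts 2 thymus members were higher (1.26%), 6 spleen members were lower (1.77%) and 2 members were higher in liver than in each other tissue (11.7%); without SAM 1 and Sham 15, 2 thymus members were lower (2.54%). With no scaling beyond the library total 2 members were higher in liver than the mean of the other tissues (10.5%), 27 in thymus (39.5%), 0 in liver than in each other tissue (6.53%), and 36 were lower in liver than in each other tissue (37.9%). Counted against each other tissue in place of the mean, liver had 1 higher (15.3%) and 20 lower (11.6%), brain 4 lower (12.1%), thymus 3 higher (6.81%) and 2 lower (3.26%), and spleen 7 higher (7.06%) and 2 lower (2.39%). The cause of these shifts was not tested. Among single genes, leaving out 1 liver library moved Kcnn1 between -0.35 and 0.092, Kcnn3 between -0.58 and 0.60 and Kcnj15 between -0.31 and 0.60. With the animal number as a replicate block, 59 members were higher in brain than in each other tissue, 1 in liver, 2 in thymus and 7 in spleen. Without the block the numbers were 60, 1, 3 and 7, and the shares of all genes under the block are not given here. Kcnk16 no longer passed for thymus nor Kcnq1 for spleen, and Kcnn3 passed for spleen. The interaction under the block called 0 members and 3 genes in all. At 12.9 to 20.1 M counts per library a member near 1 CPM rests on 12.9 to 20.1 counts, so differences in members below it were not detectable at this depth unless large.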

Other observations

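Several members lie next to each other in the rat genome (RefSeq order, GRCr8), and neighbours were alike in some pairs and not in others. Kcnj5 and Kcnj1 on chromosome 8 both had their highest sham level in spleen (9.34 and 1.97 CPM), and Kcna5, Kcna1 and Kcna6 on chromosome 4 in brain (3.15, 52.5 and 142 CPM). Kcnk16 and Kcnk5 on chromosome 15 were both highest in thymus by mean level without scaling between tissues (1.10 and 23.3 CPM); with it the Kcnk5 level was higher in liver. Kcnj6 and Kcnj15 on chromosome 11 differed: Kcnj6 was at 37.0 CPM in brain with 0 counts in liver, and Kcnj15 was at 0.53 CPM in brain and 8.78 CPM in liver. Kcna3 and Kcna2 on chromosome 2 also differed, with thymus levels of 19.0 and 15.03 CPM against brain levels of 14.2 and 528 CPM. These are descriptions of single pairs, and no test of neighbours was made.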
